A study of Rattus norvegicus with 67 samples.

Results

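The 4 Hox cluster regions of the rat genome and their flanks were examined for histone retention in sperm. The regions were set by coordinates of the Rnor 6.0 genome, with no use of the measured values. The Hoxa interval is chr4:81000001-83500000 with 2500 windows of 1000 bp, the Hoxb interval is chr10:83000001-85000000, the Hoxc interval is chr7:143500001-145500000 and the Hoxd interval is chr3:60500001-62500000, with 2000 windows each. Together they hold 8500 of the 2782040 windows of the genome that were counted.

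The counts come from ChIP-Seq, in which an antibody against a histone pulls down the DNA that is still wrapped on histones. The labels name a pan histone H3 antibody for these samples, while the methods also mention an antibody against trimethylated H3K27, and the tables of counts do not say which was used. Sperm was taken from the cauda epididymis of F3 generation males of the outbred Hsd:Sprague Dawley SD strain at 1 year of age. In the atrazine lineage the gestating F0 female was injected with 25 mg/kg atrazine, a herbicide, and in the control lineage with the vehicle DMSO, so no F3 male was itself exposed. The atrazine lineage males were 19 with no disease, 5 lean, 3 with kidney disease, 4 with testis disease, 5 with late puberty and 14 with multiple disease. Most multiple disease males have lean among their labels. The control lineage had 16 males with counts, kept as 1 group although some carry disease labels. These are late puberty in M4, obese in M5, M11 and M15, and kidney disease in M7. M3 has late puberty and obese, and M17 has kidney disease and lean. Each of the disease groups was set against 17 of the atrazine lineage males with no disease, the same 17 every time. All 50 atrazine lineage males were set against the 16 control lineage males. The animals are outbred, so that groups can also differ in their genomes, and littermates are not marked. A second label, the treatment tag, goes against the lineage for 13 atrazine lineage males, which it calls DMSO, and for all control lineage males, which it calls atrazine. The 13 are 6 of 19 males with no disease, 1 of 5 lean, 2 of 3 kidney disease and 4 of 14 multiple disease males. No testis disease or late puberty male is among them. The groups follow the lineage. The methods describe pools of sperm, whereas the files list the animals separately. Total counts were between 19909382 and 239635003 reads per animal. At the median window of chromosomes 3, 4, 7 and 10 an animal had between 3 and 93 reads, so that a single window in a shallow library has a large counting error.

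Hox genes encode homeodomain transcription factors that give cells of the embryo their position along the head to tail axis. In mammals they lie in 4 clusters, in which the order of the genes follows the order in which they are expressed along that axis. During the last steps of sperm formation most histones are replaced by protamines, and the promoters of developmental genes, the Hox genes among them, are a known place where histones remain. Such promoters are rich in CpG dinucleotides, and in other cells they carry active and repressive histone marks together.

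The gene content of the intervals could only be checked in part, because no gene annotation of the Rnor 6.0 build was used here. In the RefSeq annotation of another rat build, GRCr8, the clusters hold 11 Hoxa, 10 Hoxb, 9 Hoxc and 9 Hoxd genes. For Hoxb, Hoxc and Hoxd its gene order runs from Hoxb13 to Hoxb1 and Skap1, from Hoxc13 to Hoxc4 and Smug1, and from Evx2 through Hoxd13 and Hoxd1 to Mtx2. The study's own annotation names Hoxd1 at a window of the Hoxd interval and Skap1, the neighbour of Hoxb1, at windows on both sides of a peak of the Hoxb interval. Places of the other Hox genes in Rnor 6.0 were not analysed here.

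To show the kind of sequence that lies at these genes, 3 promoters are printed as the 250 bases before the RefSeq start of the gene in GRCr8, 5′ to 3′ on the strand of the gene, with every CpG in capitals. Hoxd1 is shown because the study's annotation places it at a window picked below by its small p in the lean comparison. In that window the lean animals and the animals with no disease did not overlap. Hoxa13 and Hoxc4 are shown because they had the most and the fewest CpG among the Hox promoters matched.
Hoxd1: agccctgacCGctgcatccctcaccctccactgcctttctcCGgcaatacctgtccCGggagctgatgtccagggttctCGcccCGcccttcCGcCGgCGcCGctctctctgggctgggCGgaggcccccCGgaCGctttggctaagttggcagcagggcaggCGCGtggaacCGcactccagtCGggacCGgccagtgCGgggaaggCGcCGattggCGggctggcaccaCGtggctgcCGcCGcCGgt
Hoxa13: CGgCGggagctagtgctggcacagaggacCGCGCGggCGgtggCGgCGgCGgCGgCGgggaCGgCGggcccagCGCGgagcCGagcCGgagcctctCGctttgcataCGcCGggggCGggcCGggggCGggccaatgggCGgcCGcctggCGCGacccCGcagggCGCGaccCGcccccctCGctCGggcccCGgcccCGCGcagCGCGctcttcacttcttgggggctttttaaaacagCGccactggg
Hoxc4: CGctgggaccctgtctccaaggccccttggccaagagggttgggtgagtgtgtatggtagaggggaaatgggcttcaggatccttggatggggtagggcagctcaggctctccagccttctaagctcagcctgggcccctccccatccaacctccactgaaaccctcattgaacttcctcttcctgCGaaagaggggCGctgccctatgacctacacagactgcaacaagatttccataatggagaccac
The Hoxd1 promoter, on the plus strand, has 25 CpG, Hoxa13, on the minus strand, has 39 and Hoxc4, on the plus strand, has 3. Promoters were found for 20 of the 39 Hox genes, and their median was 19 CpG. Only Hoxb1 (6 CpG) was matched from Hoxb and only Hoxc4 from Hoxc. The values over the Hox promoters thus describe mainly Hoxa and Hoxd. Over 27457 promoters of all genes of the same length the median was 6 CpG, and 19.8% had 19 or more. At least 10 CpG were found in 17 of the 20 Hox promoters and in 38.4% of all promoters.

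Of the 66 libraries, 2 stood apart inside the Hox intervals. The level used throughout is the number of reads in a window divided by the animal's median over the windows of that chromosome, so that 1 is the chromosome's usual level. Multiple disease animal M48 is labelled with late puberty, testis disease, kidney disease and lean. It had a level of at least 5 in 1650 of the 8500 windows (19.4%), against 12.6% of its windows over the genome. These made up 30.6% of the Hoxc, 21.7% of the Hoxb, 15.5% of the Hoxa and 10.9% of the Hoxd interval. Lean animal M28 had 24 such windows (0.282%, against 0.736% over the genome), and no other animal had more than 2. M48 is a shallow library with a chromosome median of 3 to 5 reads, and M28 had medians of 8 to 11 reads, so their levels are coarse. The median of M48 on chromosomes 3, 4 and 7 was 0.149 RPM (reads scaled to the total counts of the animal), where the median animal had between 0.362 and 0.368 RPM, and division by this low median raises all levels of M48. When the mean reads per window of an interval were divided by the mean of its chromosome in place of the median, M48 was the highest animal in the Hoxa (1.285), Hoxb (1.37) and Hoxc (1.63) intervals and the lowest in the Hoxd interval (0.824). The main peaks and the stretches near 0.5 are therefore described with these libraries apart.

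The excess of M48 extended over many neighbouring windows, and the highest 50 in a row of each interval are given here. Its highest 50 windows of the Hoxa interval were chr4:82126001-82176000, with a mean level of 8.62, where the 64 other animals had a median of 0.864. In the Hoxb interval they were chr10:84946001-84996000 at 6.73 (others 1.00). The Hoxc interval reached 11.6 at chr7:143817001-143867000 (others 0.943), and the Hoxd interval 8.92 at chr3:61609001-61659000 (others 0.944). M28 was also above the range of the 64 others in all 4 domains, at 2.10, 1.74, 2.69 and 2.21.

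A few other libraries followed the profile of M48 in graded amounts, and most did not. Over 336 blocks of 20 windows in the 4 intervals, the log2 level of M28 followed that of M48 with Pearson's r = 0.881. The next animals were M22 with no disease (0.844), lean M42 (0.57), control lineage M17 (0.539) and M20 with no disease (0.504). M17 is labelled with kidney disease and lean. The slope on M48 was 0.421 in M28, 0.258 in M22, 0.148 in M42 and 0.132 in M17, so that the excess became smaller down this order. Correlations were positive in 19 of the 65 animals, and the median was -0.186 with a lowest value of -0.487. Among the 5 lean animals, r was 0.881 in M28, 0.57 in M42, 0.154 in M54, 0.0721 in M56 and -0.309 in M66. These are descriptions across blocks of the genome, which share base composition and are not replicates, and all blocks share the read depth of M48.

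**Figure D1:**
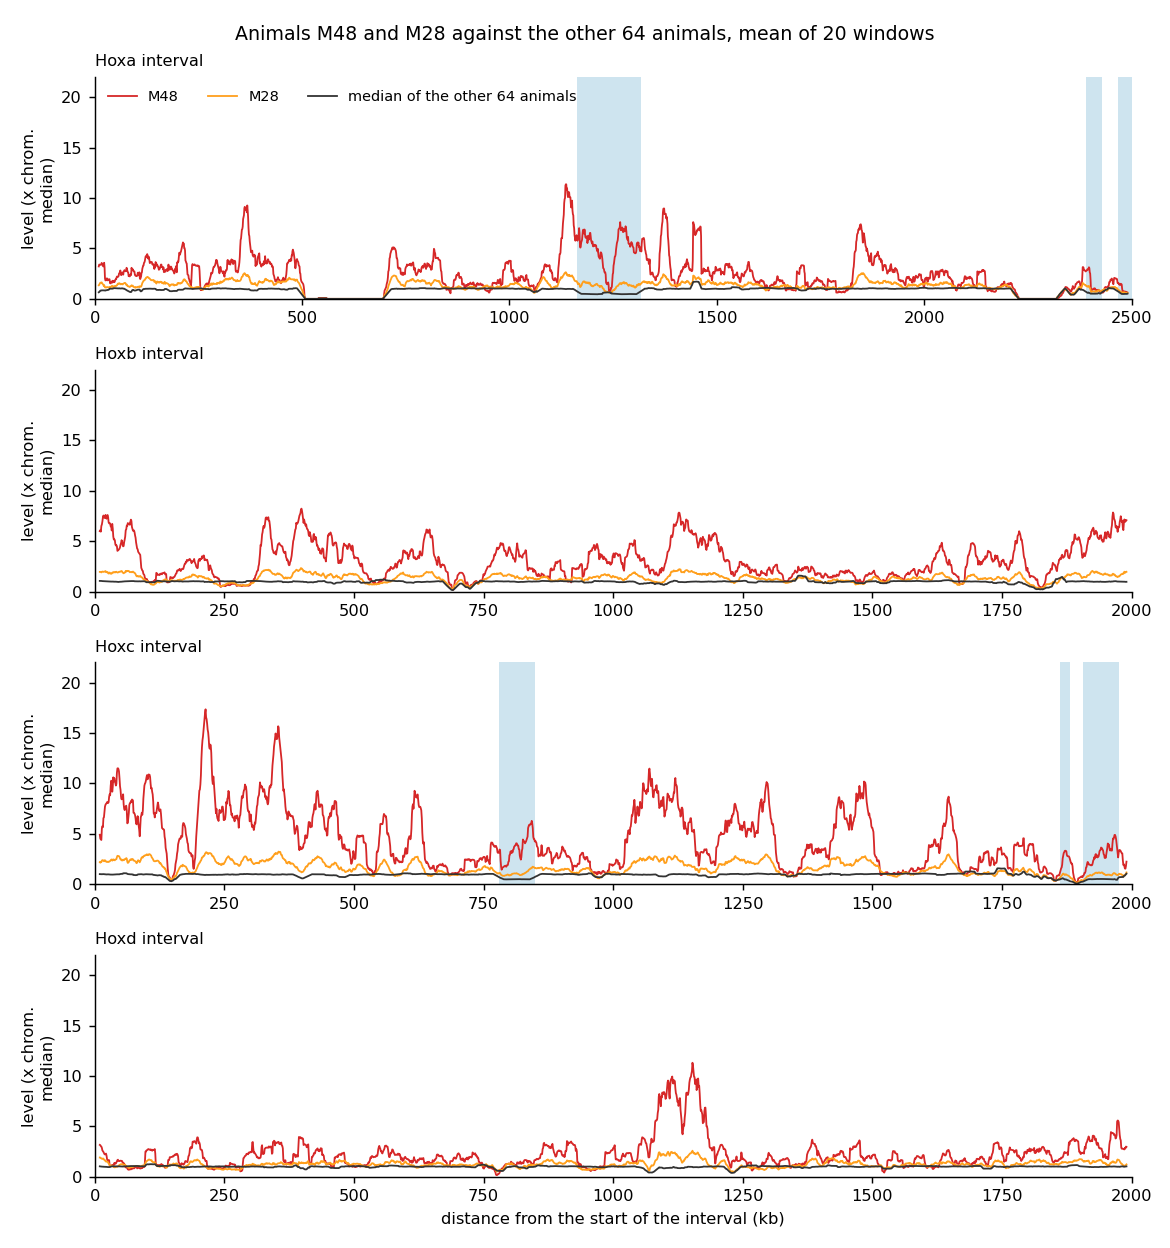
Level of multiple disease animal M48, of lean animal M28 and of the median of the other 64 animals along the 4 Hox intervals, as the mean of 20 windows, with distance from the start of the interval in kb on the horizontal axis and the level relative to the chromosome median on the vertical axis. M48 rises in broad domains to 8.62, 6.73, 11.6 and 8.92 over 50 windows in Hoxa, Hoxb, Hoxc and Hoxd, and M28 follows it at a lower height. The median of the others is near 1 over much of the intervals, lower in the stretches near 0.5 and at 0 where no animal has reads.

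Over all animals the Hox intervals were level and had few strong sites. Taking for each window the median level over the 66 animals, 84.4% of the Hox windows with reads lay between 0.8 and 1.2, against 78.5% over the genome. A level of at least 2 was reached by 50 of the 8500 windows (0.588%), against 2.88% of the windows of the genome, and a level of at least 3 by 9 windows (0.106%), against 1.04%. Per interval, 12 Hoxa windows (0.48%) reached 2, against 2.26% of chromosome 4, and 13 Hoxb windows (0.65%), against 1.08% of chromosome 10. In Hoxc there were 18 (0.9%), against 3.06% of chromosome 7, and in Hoxd 7 (0.35%), against 2.22% of chromosome 3. All 4 intervals were thus below the share of their own chromosome. Hox windows and Hox peaks here are those of the whole intervals, flanks included. Levels at the Hox genes or their promoters were not measured apart, so these shares do not describe them. The highest level in the intervals was 3.41, whereas the highest on each of these chromosomes was between 13.1 and 78.1.

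No reads were found in 437 Hox windows (5.14%), against 4.21% of the genome. Of these, 324 were in the Hoxa interval, mainly in the blocks chr4:81499001-81549000, chr4:81550001-81703000 and chr4:83220001-83328000. Of the 8500 windows, 7795 had a mean of at least 10 reads over the 66 animals.

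**Figure D2:**
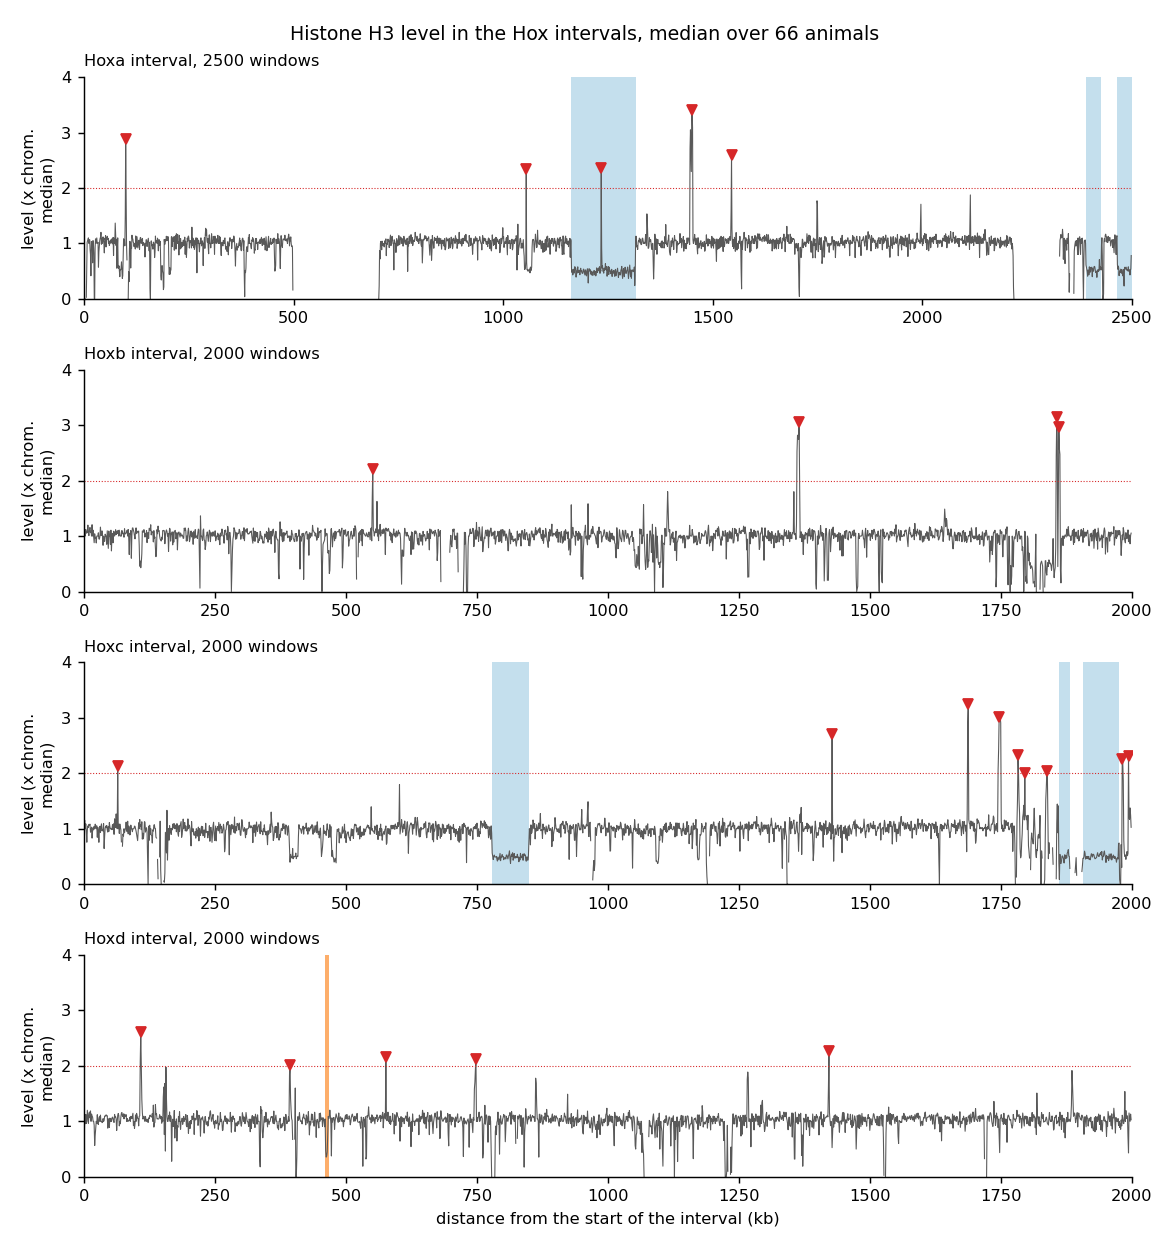
Median level over 66 animals of every window of the 4 Hox intervals, with distance from the start of the interval in kb on the horizontal axis and the level relative to the chromosome median on the vertical axis, and the threshold of 2 as a dotted line. Most windows lie close to 1, the highest reach 3.41 in Hoxa, 3.15 in Hoxb, 3.25 in Hoxc and 2.61 in Hoxd, and long stretches near 0.5 are seen in Hoxa and Hoxc.

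Peaks of retention were defined as windows with a median level of at least 2, joined across at most 1 lower window. Levels were not corrected for copy number, base composition or how uniquely reads map, and no input library was used. A peak here is thus a site of high counts, and its cause was not tested. The Hoxa interval had 5 peaks, Hoxb 4, Hoxc 9 and Hoxd 5, which is 23 of the 22494 peaks found on the genome by the same rule. Peaks are numbered along each interval. At the threshold, the lowest window inside a Hoxa peak had 2.02 and the highest outside 1.88. These were 2.10 and 1.83 in Hoxb, 2.00 and 1.87 in Hoxc, and 2.00 and 1.98 in Hoxd.

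The strongest and longest Hox peak was Hoxa-P4 at chr4:82446001-82453000, 7 windows long, with its top of 3.41 at chr4:82451001-82452000, which is above 99.8% of the windows of chromosome 4. Averaged over its windows, the 64 animals other than M28 and M48 were between 2.17 in M57 and 3.99 in M22, with at least 140 reads over the peak in every animal. M28 was inside this range at 3.61, and M48 was far above it at 16.05. The next Hoxa peaks were Hoxa-P1 at chr4:81099001-81101000, with a top of 2.88, and Hoxa-P5 at chr4:82545001-82546000, with 2.59. At both, M28 was the lowest animal, at 1.25 and 0.875, and M48 was inside the range of the others, at 2.83 and 2.00. A mean level above 2 at Hoxa-P4 was thus shared by all 66 animals. M48 was raised at this peak and not at the other Hoxa peaks named here.

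The Hoxb interval held a pair of neighbouring peaks near its end. Hoxb-P3, chr10:84856001-84859000, had a top of 3.15, and Hoxb-P4, chr10:84861001-84864000, had 2.96. Hoxb-P3 was between 2.22 and 3.5 in the 64 other animals, with M28 at 2.21 and M48 at 5.27. Hoxb-P4 was between 1.49 and 3.96 in them, and the lowest animals were M48 at 0.667 and M28 at 0.788. In M48 the first of these neighbours was thus raised and the other was below the chromosome median. Hoxb-P2, chr10:84361001-84367000, was the longest Hoxb peak with 6 windows and a top of 3.06, and it is the peak that lies between windows which the study's annotation assigns to Skap1, an adaptor protein of T cell receptor signalling. It was between 1.93 and 3.34 in the 64 other animals, at 1.56 in M28 and at 2.80 in M48.

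Of the 9 Hoxc peaks, 7 lay in the last part of the interval, from chr7:145187001-145189000 onwards. That first one, Hoxc-P3, had the highest top, 3.25, and ranged from 2.15 to 4.05 in the 64 other animals, with M48 the lowest at 1.17 and M28 at 1.94. Hoxc-P4, chr7:145245001-145251000, was 6 windows long with a top of 3.02 and ranged from 1.79 to 3.43, with M48 at 5.61. The single window Hoxc-P2, chr7:144928001-144929000, had a median of 2.71, with M48 at 18.3, M28 at 9.63 and the 64 other animals between 1.38 and 4.30. The single window Hoxc-P1, chr7:143564001-143565000, ran from 1.00 in M66 to 4.29 in the 64 other animals, with M48 at 24.7 and M28 at 4.5. Hoxc-P7, chr7:145338001-145340000, ran from 0.364 in M57 to 3.46 in them, with M48 at 5.33 and M28 at 2.50.

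Hoxd peaks were the lowest of the 4 intervals, and none reached 3. Hoxd-P1, chr3:60607001-60610000, had a top of 2.61 and ranged from 1.67 to 3.13 in the 64 other animals, with M28 at 2.88 and M48 at 8.56. The others were 1 window long, with Hoxd-P5, chr3:61922001-61923000, at 2.265 and Hoxd-P3, chr3:61076001-61077000, at 2.16. At these single windows the animals ranged from 0.9 to 4, and a single window holds few reads.

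Peak windows were compared with the other windows of their interval by animal. In the Hoxa interval the ratio had group medians between 2.76 in kidney disease and 2.96 in control lineage animals, and in Hoxb between 2.33 in lean and 2.96 in control lineage animals. In the Hoxa interval, the mean level over peak windows was 2.77 ± 0.169 (SD, n = 19) with no disease, 2.67 ± 0.0999 (n = 5) in lean, 2.72 ± 0.122 (n = 3) in kidney disease, 2.80 ± 0.305 (n = 4) in testis disease, 2.74 ± 0.065 (n = 5) in late puberty and 2.78 ± 0.184 (n = 16) in control lineage animals. Lean animal M28 was inside its group, at 2.59. The 14 multiple disease animals had a median of 2.69, and M48 gave their highest value of 10.2. Group medians over peak windows were between 2.30 and 2.77 in Hoxb, between 2.40 and 2.61 in Hoxc and between 2.15 and 2.29 in Hoxd, where the groups overlapped. In Hoxb the ratio of peak windows to other windows had its lowest values in M48 (0.863), M28 (1.10), M22 (1.67) and M42 (1.82). In Hoxc the same 4 animals were lowest, M48 at 1.23, M28 at 1.64, M42 at 1.81 and M22 at 1.88. In these animals, which lead the likeness to M48, the Hoxb and Hoxc peaks stood out least. Hoxa differed, since M28 (1.85) and M42 (2.31) had the lowest ratios, M22 was at 2.70 and M48 had the highest, 3.62. In Hoxd the lowest ratio was 1.77, in M67, and M48 was at 2.18.

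**Figure D3:**
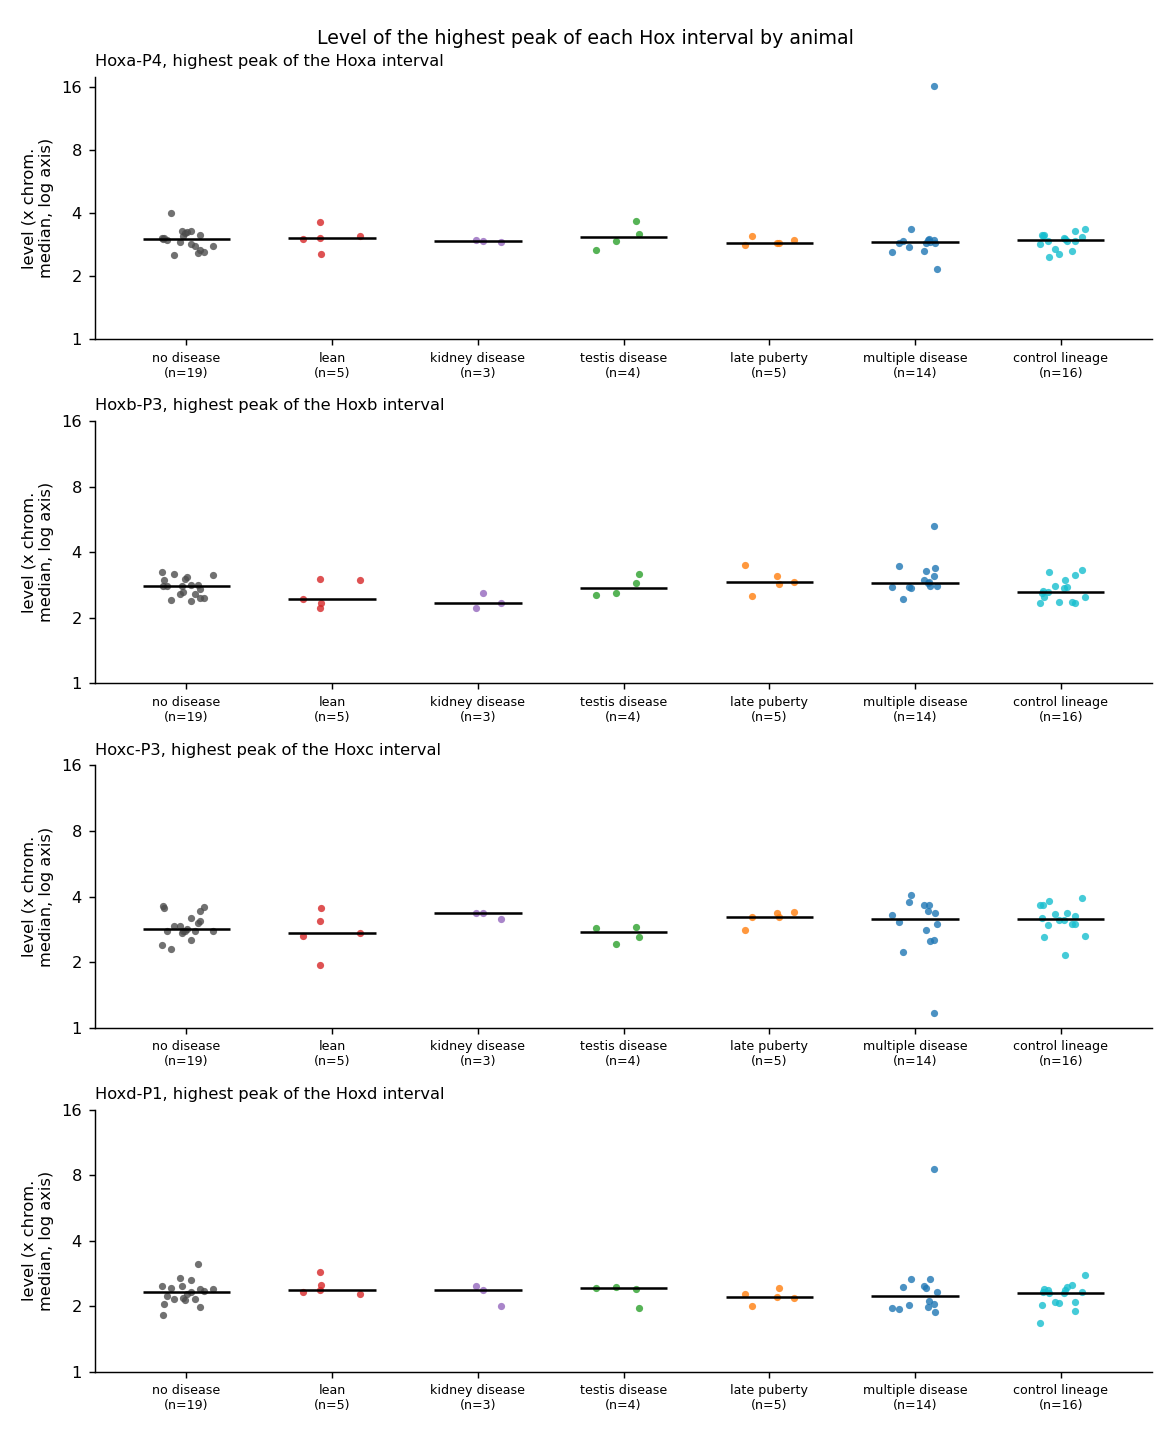
Level of the highest peak of each Hox interval by animal and group, on a log axis relative to the chromosome median, with each point an animal and the bar the group median. The 7 groups overlap at each peak, and M48 lies apart at Hoxa-P4 (16.05), at Hoxb-P3 (5.27), at Hoxd-P1 (8.56) and below the others at Hoxc-P3 (1.17).

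Beside the peaks, the Hoxa and Hoxc intervals had long stretches at a level near 0.5. By a rule set after the profile was seen, runs of at least 20 windows with a median level from 0.35 to 0.65, with gaps of at most 2 windows, were collected. There were 3 in Hoxa, 3 in Hoxc and none in Hoxb or Hoxd, with 383 Hox windows in all (4.51%), against 90589 windows (3.26%) in 2027 stretches over the genome. The longest, Hoxa-L1 at chr4:82163001-82316000, had 153 windows with a median of 0.5, while its flanks were at 1.03 and 1.01. Its mean level was between 0.4 and 0.6 in 61 of the 66 animals, with a median of 0.503. The highest animals were M48 at 4.88, M28 at 1.24 and M22 at 0.859. The low level was thus a property of the region shared by nearly all animals, in every group.

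The other stretches were Hoxa-L2 at chr4:83391001-83428000, Hoxa-L3 at chr4:83466001-83500000, which runs on past the interval, Hoxc-L1 at chr7:144279001-144349000 with 70 windows, Hoxc-L2 at chr7:145361001-145382000 and Hoxc-L3 at chr7:145407001-145475000 with 68 windows. In each of them between 57 and 59 animals were between 0.4 and 0.6. M48 was the highest animal in all 6 stretches, from 1.01 in Hoxa-L3 to 4.88 in Hoxa-L1, and M28 was the next. The low chromosome medians of M48 raise these levels. Its mean over the windows outside peaks was 2.82 in Hoxa and 4.62 in Hoxc, and that of M28 was 1.405 and 1.65. Against these means of their own, only Hoxa-L1 in M48 was higher, and the other stretches were lower in both animals.

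The authors mapped the reads with Bowtie2 in its default setting, which gives a read that fits several places equally well to a place chosen among them. Whether these stretches hold duplicate sequence was not tested, since no genome of this build was used here. As a description within the counts, the log2 counts of M48 in the first 70 windows of Hoxa-L1 were set against 368316 placements on chromosome 4, in both orientations. The best was 86 kb further along in the same stretch, with r = 0.675 (next best 0.566). The last 70 windows, which repeat this comparison in reverse, had their best placement 86 kb back, with r = 0.731 (next 0.58). The best placement of Hoxc-L1 on chromosome 7 was Hoxc-L3, 1128 kb further along, with r = 0.637 (next 0.559), and in reverse that of Hoxc-L3 was Hoxc-L1, with r = 0.663 (next 0.531). These placements were those of M48 only. For the same 4 queries the best r was between 0.529 and 0.603 in M28 and between 0.551 and 0.684 in the sum of the 64 other animals, each at other places. At the shifts of M48, r was between 0.258 and 0.319 in M28 and between -0.0625 and 0.236 in the sum of the others. For the shorter Hoxa-L2 the best placement of M48, with r = 0.691, was on distant windows at a level of 1.07. For Hoxa-L3 it was on distant windows at 0.553, with r = 0.755 (next 0.749, at a level of 0.488).

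A short stretch of the Hoxd interval differed widely between animals. It was looked for after the data were seen, as 3 neighbouring windows with at least 10 animals below 0.2 and at least 10 above 0.6, and only Hoxd had such places. Of the places in the other intervals with at least 10 animals above 0.6, none had more than 3 animals in Hoxa, 4 in Hoxb and 6 in Hoxc below 0.2. The joined stretch, chr3:60961001-60966000, ranged from 0.0286 in testis disease animal M33 to 1.63 in lean animal M28, with a median of 0.566, while its flanks were between 0.883 and 2.03 with a median of 1.03. It was below 0.3 in 20 animals, between 0.39 and 0.76 in 35 and at least 0.886 in 11, with no animal between 0.295 and 0.39 and none between 0.76 and 0.886. The inner windows had no read at all in 14 to 16 animals, and the lowest animal had 2 reads over the 5 windows.

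All groups with more than 5 animals held each of these classes. Below 0.3 were 6 of 19 animals with no disease, 2 of 5 lean, 3 of 4 testis disease, 6 of 14 multiple disease and 3 of 16 control lineage animals, and none of the 3 kidney disease or 5 late puberty animals. The kidney disease animals had 0.565, 0.62 and 0.991, and the testis disease animals 0.0286, 0.128, 0.15 and 0.686. The animals with no disease ranged from 0.0636 to 1.07. Of the kidney and testis disease animals, M33 was below this range and the other 6 were inside it. In edgeR's quasi-likelihood test the smallest p of a window here was 0.0176 in the kidney disease comparison (log2 fold change 0.93) and 0.0393 in the testis disease comparison (-0.96), both with an adjusted p of 1 by Benjamini-Hochberg. Both were at the first window of the stretch. In the kidney disease comparison 5 windows of the stretch had enough reads to be tested, and in testis disease only 2.

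**Figure D4:**
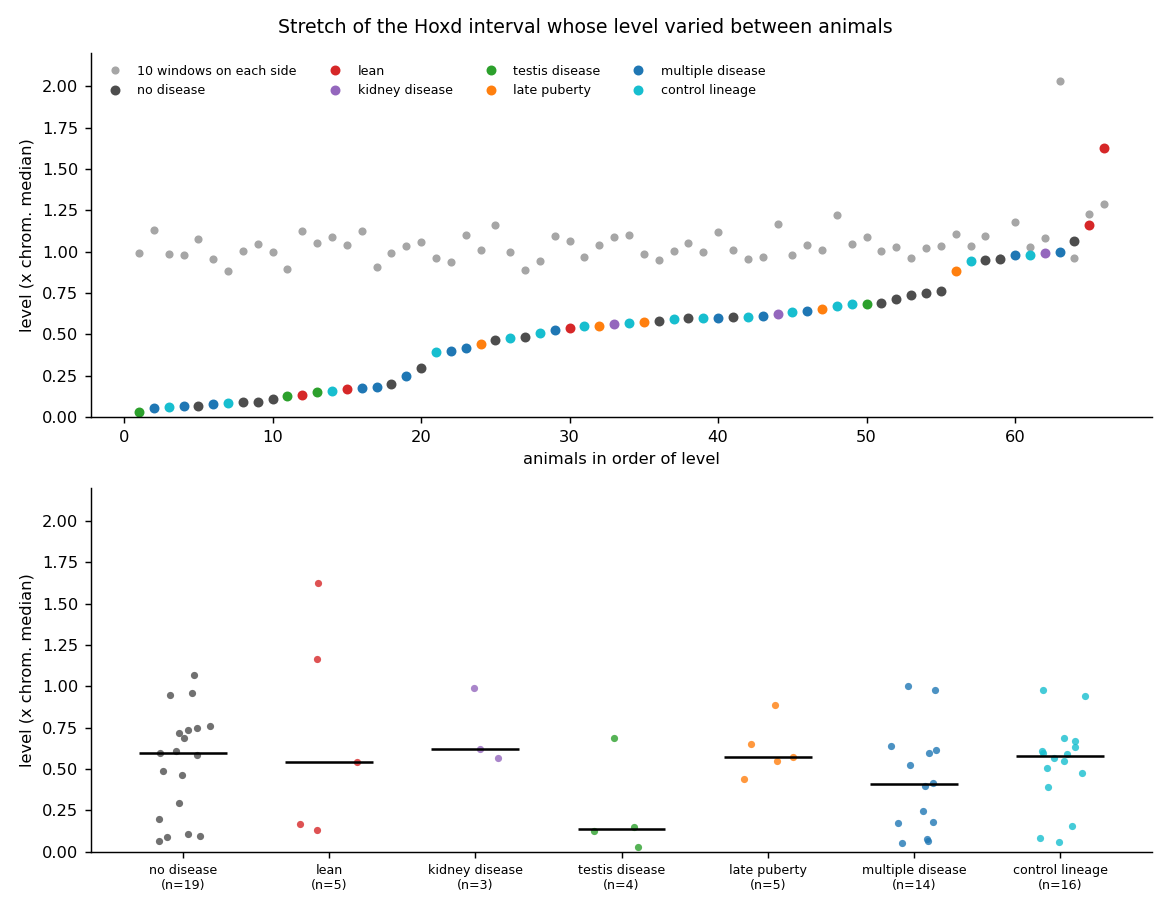
Level of the stretch chr3:60961001-60966000 relative to the chromosome median, with the 66 animals in order of level in the upper panel and by group in the lower panel, each point an animal. The levels run from 0.0286 to 1.63, with 20 animals below 0.3, 35 between 0.3 and 0.8 and 11 above, and the groups overlap.

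Group differences in the Hox intervals were read from a fit over all windows of the genome with a mean of at least 10 reads, with edgeR's quasi-likelihood test, and a window was called at p below 0.0001, as the study did. A called window was extended over neighbouring windows with p below 0.1 into a differential histone retention region (DHR). In the lean comparison 3 of 7678 Hox windows were called (0.0391%), against 963 of 2396026 windows of the genome (0.0402%). In the late puberty comparison 1 of 7728 was called (0.0129%, genome 0.00355%). In the kidney disease, testis disease and multiple disease comparisons and between the lineages 0 Hox windows were called, where the shares over the genome were 0.00235%, 0.00533%, 0.00137% and 0.0133%. By DESeq2's Wald test these counts were 0, 0, 1 and 1. No Hox window had an adjusted p below 0.05 in any comparison, and the smallest after Benjamini-Hochberg adjustment in edgeR's quasi-likelihood test was 0.239, in the lean comparison.

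At an unadjusted p below 0.05, the shares over the 4 Hox intervals together were 859 windows (11.2%, genome 11.4%) in lean, 222 (2.86%, genome 2.77%) in kidney disease, 298 (3.86%, genome 3.65%) in testis disease, 258 (3.34%, genome 3.49%) in late puberty, 301 (3.94%, genome 3.30%) in multiple disease and 504 (6.47%, genome 6.24%) between the lineages. The disease comparisons share their 17 animals with no disease, so their counts are not independent of each other. In the lean comparison 763 of the 859 windows were higher in lean animals, with a median log2 fold change of 0.14 over the Hox windows and 0.01 over the genome. The lean share was 14.9% in Hoxb, 14.0% in Hoxc, 9.40% in Hoxa and 6.84% in Hoxd. Without M28 the lean comparison had 359 such windows in place of 859, with 5.09% in Hoxb, 4.90% in Hoxc, 4.66% in Hoxa and 4.04% in Hoxd, against 6.44% of sampled windows of the genome. The 4 windows that were called are described next.

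In the lean comparison, window chr3:61690001-61691000 was lower in lean animals. This is the second window of the DHR chr3:61689001-61691000, for which the study's annotation names Hoxd1, the gene at the 3′ end of the Hoxd cluster. The lean animals were at 0.125 (M28), 0.227 (M42), 0.3 (M56), 0.462 (M54) and 0.583 (M66), and the 17 animals with no disease were between 0.64 and 1.73 with a median of 0.846. All lean animals were below all animals with no disease. The window was picked by its p in these same animals, so the separation is no further support. How often windows of the genome separate in this way was not counted. Counts were between 1 and 12 reads in lean animals and between 10 and 29 in the others, which is 0.122 ± 0.0673 (SD, n = 5) against 0.362 ± 0.118 (SD, n = 17) RPM. The log2 fold change was -1.45, with p = 3.69e-05 and an adjusted p of 0.239 after Benjamini-Hochberg adjustment in edgeR's quasi-likelihood test. Without M28 it was -1.31 with p = 0.00023 by the same test, and p was also above 0.0001 without M42 (0.000554) or M56 (0.000145). M48, which is not in this comparison, had no read in this window, where its chromosome median was 3 reads.

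Window chr10:83069001-83070000 of the Hoxb interval was higher in lean animals, in the DHR chr10:83067001-83070000. The lean animals were at 0.727 (M66), 1.27 (M42), 1.56 (M54), 2.30 (M56) and 4.27 (M28), and the animals with no disease between 0.583 and 1.62 with a median of 0.857. M28 and M56 were above all animals with no disease, and the groups overlapped. The log2 fold change was 1.12, with p = 3.93e-05 and an adjusted p of 0.239 after Benjamini-Hochberg adjustment in edgeR's quasi-likelihood test. Without M28 it was 0.63 with p = 0.0156 and without M56 it was 1.10 with p = 0.000198, so that the call was lost in both cases. M48 was at 13 in this window.

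Window chr7:145381001-145382000, the last window of the stretch Hoxc-L2 near 0.5, was also higher in lean animals. They were at 0.731 (M54), 1.00 (M56), 1.08 (M66), 1.09 (M42) and 1.63 (M28), and the animals with no disease between 0.125 and 0.773 with a median of 0.433. The groups overlapped only in that M54 was below the no disease animals M47 (0.773) and M22 (0.76). The log2 fold change was 1.23, with p = 7.1e-05 and an adjusted p of 0.239 after Benjamini-Hochberg adjustment in edgeR's quasi-likelihood test. Without M28 it was 1.12 with p = 0.000692, and p was between 0.000207 and 0.000549 without M42, M56 or M66 and 0.000455 without the animals tagged DMSO. M48 was at 2.33. At all 3 windows called in the lean comparison M28 was thus the animal furthest from the no disease group, and M48 lay on the same side. The low chromosome medians of M48 raise all its levels, however. Its 2.33 in the Hoxc window was below its mean of 3.25 over Hoxc-L2. Its 13 in the Hoxb window was above its mean of 3.15 over the Hoxb windows outside peaks. The part of the profile of M48 in these differences was not tested beyond leaving M28 out.

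In the late puberty comparison, window chr7:144002001-144003000 of the Hoxc interval was lower in animals with late puberty, in the DHR chr7:144002001-144004000. They were at 0.214 (M35), 0.25 (M36), 0.333 (M38), 0.391 (M50) and 0.696 (M51), and the animals with no disease between 0.381 and 1.33 with a median of 0.9. The groups overlapped, with 3 late puberty animals below all animals with no disease. The log2 fold change was -1.21, with p = 6.21e-05 and an adjusted p of 1 after Benjamini-Hochberg adjustment in edgeR's quasi-likelihood test. Without M35, M36, M38 or M50, p was between 0.000289 and 0.000645 with log2 fold changes between -1.21 and -1.09. M48 was at 1 and M28 at 2 in this window.

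**Figure D5:**
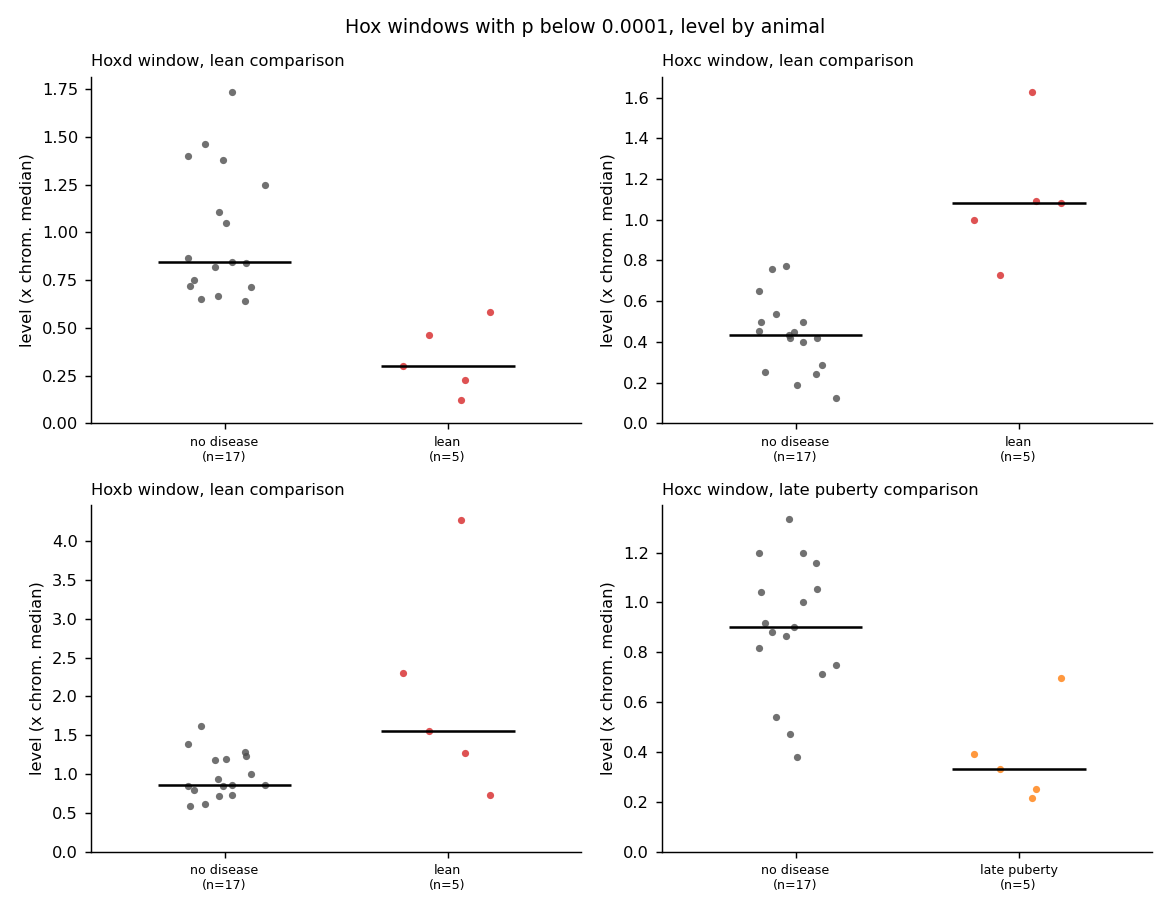
Level relative to the chromosome median of the 4 Hox windows with p below 0.0001 in the animals of the comparison, with each point an animal and the bar the group median. The windows were picked by p in these same animals. Lean animals do not overlap with animals with no disease in the Hoxd window (0.125 to 0.583 against 0.64 to 1.73), and the groups overlap in the other 3.

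None of the 23 Hox peaks differed in any comparison at an adjusted p below 0.05, when reads were summed over each peak and put through edgeR's quasi-likelihood test among all 22494 peaks of the genome. Over the genome 0 peaks were called in each disease comparison, and 1 (0.00445%) between the lineages. DESeq2 also called 0 Hox peaks. At an unadjusted p below 0.05 there were 3 Hox peaks in the lean comparison (genome 13.9%), 3 between the lineages (genome 11%) and 0 in the comparisons of kidney disease (genome 2.61%), testis disease (3.30%), late puberty (3.12%) and multiple disease (3.08%). The strongest Hox peak, Hoxa-P4, had log2 fold changes between -0.07 and 0.11 over the 6 comparisons.

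The smallest p of a Hox peak was that of Hoxb-P4 in the lean comparison. Lean animals were at 0.788 (M28), 1.67 (M42), 1.93 (M56), 1.96 (M54) and 2.73 (M66), and animals with no disease between 1.49 and 3.37 with a median of 2.82. Only M28 was below all animals with no disease. The log2 fold change was -0.43, with p = 0.00244 and an adjusted p of 0.277 after Benjamini-Hochberg adjustment in edgeR's quasi-likelihood test, and it ranged from -0.53 to -0.30 with each lean animal left out. Hoxc-P2 went the other way, with lean animals at 2.33, 3.00, 3.08, 4.30 and 9.63 and animals with no disease between 2 and 3.63, a log2 fold change of 0.59 and an adjusted p of 0.277 in the same fit. Its highest lean value was again that of M28.

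Between the lineages, the Hox peak with the smallest p was the neighbouring Hoxb-P3. The 50 atrazine lineage animals ranged from 2.21 to 5.27 with a median of 2.80, and the 16 control lineage animals from 2.33 to 3.33 with a median of 2.64, and the groups overlapped. The log2 fold change was 0.14, with an adjusted p of 0.32 after Benjamini-Hochberg adjustment in edgeR's quasi-likelihood test. In the other comparisons the smallest p belonged to Hoxb-P3 for kidney disease (-0.20), Hoxa-P2 for testis disease (-0.24) and late puberty (-0.26), and Hoxa-P5 for multiple disease (-0.20), given as log2 fold changes, with adjusted p-values from 0.991 to 1.

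Small shifts over the Hoxb and Hoxc intervals were seen between the lineages. Of the 1880 Hoxb windows tested, 243 (12.9%) had an unadjusted p below 0.05 in edgeR's quasi-likelihood test, and 240 of these were higher in the atrazine lineage. The share was 7.92% over chromosome 10 and 6.24% over the genome. The median log2 fold change was 0.15 in the Hoxb interval, 0.08 over chromosome 10 and 0.01 over the genome. In Hoxc 130 of 1870 windows (6.95%) had such a p, 125 of them higher, while Hoxa (2.93%) and Hoxd (3.58%) were below the genome. The share was 6.53% over chromosome 7. The median log2 fold change was 0.10 in Hoxc, against 0.01 on chromosome 7. It was 0.02 in Hoxa (-0.03 on chromosome 4) and -0.02 in Hoxd (-0.01 on chromosome 3). Animal by animal, mean reads per window of the Hoxb interval were divided by the mean of chromosome 10. Their median was 0.968 (0.918 to 1.37) in 50 atrazine lineage and 0.931 (0.915 to 1.05) in 16 control lineage animals. The groups overlapped, but of the atrazine lineage only M62 (0.918) was below the control lineage median. Control lineage animals M8 (1.00), M13 (0.999) and M17 (1.05) were above the atrazine lineage median. In the same measure, each against its own chromosome, the atrazine and control lineage medians were 0.891 and 0.849 in Hoxc. They were 0.925 and 0.901 in Hoxa, and 0.982 and 0.985 in Hoxd. Neighbouring windows are not independent, and none of these windows had an adjusted p below 0.05.

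The shift in Hoxb was there without the libraries that stood apart, but its size depended on the animals used. Without M28 and M48 the lineage comparison had 11.8% of the Hoxb windows at p below 0.05, against 6.39% of sampled windows of the genome, and a median log2 fold change of 0.11. With only animals without disease the lineage comparison had 6.80% in Hoxb, against 4.73%, and a median of 0.12 (log2). Without the animals tagged DMSO it had 19.4%, against 8.91%, and a median of 0.19 (log2). In the lean comparison, 278 of 1866 Hoxb windows (14.9%) had p below 0.05, 267 of them higher in lean animals, and chromosome 10 had 12.6%. In Hoxc 246 of 256 such windows were higher in lean animals, and in Hoxa 168 of 193. The median log2 fold change was 0.24 in Hoxb and 0.19 in Hoxc, against 0.13 on chromosome 10 and 0.02 on chromosome 7. Without M28 the medians of the lean comparison were 0.11 in Hoxb, 0.10 in Hoxc and -0.0013 over the sampled windows (log2).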

How the data were processed

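ChIP-Seq with a histone H3 antibody was measured in sperm of 66 F3 generation rats. Per the submitters' processing notes and the methods, the authors checked reads with FastQC, cleaned them with Trimmomatic, mapped them to Rnor_6.0 with Bowtie2, handled them with SAMtools and tested them with edgeR, with versions not given in the sources used here. The deposited values used are whole-number counts of reads in windows of 1000 bp, without normalization. Over all deposited tables, 298 other columns with values of single animals were not used. The deposited tables also hold the authors' own fold changes and p-values, which were not used. Groups follow the lineage and disease tags of the labels. Of 67 animals listed, 1 control lineage animal has no counts.

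Levels are counts divided by the animal's median over the windows of that chromosome, which is the same as the ratio of RPM values. Peaks were joined windows with a median level of at least 2 over all animals. Groups were compared with edgeR 4.0.16, limma 3.58.1 and R 4.3.3 on all windows whose mean over the animals was 10 reads or more. Normalization was by TMM, the dispersion trend came from 200000 sampled windows, and edgeR's quasi-likelihood test was two-sided. False discovery rates were adjusted by Benjamini-Hochberg over every window or peak tested. NumPy 2.4.6, pandas 2.3.3 and Matplotlib 3.10.9 in Python 3.11.15 gave the tables and figures. The fit was tested on simulated counts. The windows described are those with p below 0.0001, and the peaks described are the 3 highest and the longest of each interval and the peak with the smallest p of each comparison. Hoxc-P1, Hoxc-P7, Hoxc-P2 in the lean comparison, the stretches near 0.5, the variable stretch of Hoxd and the profile of M48 were chosen after their values were seen. The intervals and lists were chosen with earlier results of these data known. P-values measure the spread between animals, and litters are not marked.

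Alternatives were edgeR's exact test, the Wald test and size factors of DESeq2 1.42.0, no filter or a mean of at least 20 reads, other control animals, animals left out, and peak thresholds of 1.5 and 3. They were fitted on 50000 sampled windows together with the Hox windows. Promoter sequences are from RefSeq (GRCr8). The DNA methylation data of the series were not used here.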

Additional observations from a re-analysis of the deposited data

Results flagged for a closer look

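Lean animal M28 was further from its group than Dixon's limit for 5 animals allows in 3 of the 52 groups of Hox values examined, and chance alone marks about 1 in 20 groups. Its mean level outside the peaks was 1.36 in the Hoxb interval, where the lean median was 0.998, and 1.27 in the Hoxd interval, where it was 1.05. In the stretch Hoxa-L1 near 0.5 of the chromosome median, M28 was at 1.24 and the lean median at 0.557. It was the highest of the 5 lean animals in each of these.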

How the results depend on the processing

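No paired analysis was possible because animal numbers are not shared between groups. Of 248 recomputed values, 202 kept their direction and their side of the threshold or stayed within 1.5 times the reported count. None turned its direction, but many are counts, which have no direction, and among them are counts of 0 that stayed at 0. The called windows lost their p below 0.0001 in 13 values with an animal left out and in 4 with another setting. The 3 Hox windows of the lean comparison became 10 with edgeR's exact test, 5 with DESeq2's Wald test, 5 with all 19 animals with no disease and 0 without M28, and were between 0 and 7 with each lean animal left out. The 1 window of the late puberty comparison became 0 with a mean of at least 20 reads and 0 to 1 with each such animal left out. Testis disease gave 0 to 1 windows, with 1 when M41 was left out. In the multiple disease comparison 1 window was called in place of 0 with the exact test, with DESeq2's Wald test, with DESeq2's size factors and without M48. Between the lineages 2 were called with the exact test, 1 with DESeq2's Wald test and 1 with only animals without disease. The cause of these changes was not tested. Hox peaks called stayed at 0 in every alternative run. With a threshold of 1.5 in place of 2 there were 9 peaks in Hoxa, 9 in Hoxb and 12 in Hoxd, and with 3 there were 2 in Hoxa, 2 in Hoxb, 2 in Hoxc and 0 in Hoxd. With a minimum of 10 windows, 5 stretches near 0.5 were found in Hoxa and 1 in Hoxb. Medians of 3 to 5 reads per window in M48 limit what its levels can show.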
